A study of Mus musculus with 24 samples.

Results

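Smooth muscle contractile genes are described here at the maternal-fetal interface (MFI) of the mouse, as 10 genes chosen by name for the content of maternal muscle and vessel wall in the tissue. They are *Acta2*, *Actg2*, *Myh11*, *Cnn1*, *Tagln*, *Des*, *Smtn*, *Lmod1*, *Myocd* and *Mylk*, 10 of the 55401 genes in the deposited count table. Bulk polyA RNA-seq was made from wild-type (WT) mice and from mice with a homozygous knockout of *C1qtnf6* (C1qtnf6-KO, here also KO), in which CRISPR-Cas9 removed 3 exons of the gene. The deletion was constitutive, not limited to a cell type. *C1qtnf6* encodes the secreted protein CTRP6. All animals were on the C57BL/6 background, and no treatment was given. MFI was collected on gestation days (gd), at gd10.5 and gd14.5 and, later in pregnancy, at gd16.5 and near term at gd19.5. Each of the 8 groups of genotype and stage had 3 libraries, 24 in all. The labels give the tissue as maternal-fetal interface, while the methods of the study speak of placentae. How much decidua and uterine wall entered each library is not given, nor whether libraries of a group came from separate dams or litters. The p-values then measure only the spread between these libraries, which may not be that between dams or litters. Y-linked transcripts, given below, differed between libraries in every group but WT gd10.5. In those groups the 3 libraries were not all repeats of the same sample.

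Contraction of smooth muscle rests on thin filaments of actin that slide along thick filaments of myosin. Calcium bound to calmodulin activates myosin light chain kinase, which phosphorylates the regulatory light chain of myosin and so starts the cycle. Most genes of the apparatus are switched on by serum response factor (SRF), which binds a sequence called the CArG box, together with its coactivator myocardin. At the MFI such muscle lies in the wall of the maternal spiral arteries, which lose much of it when they are remodelled, in the myometrium, and in fetal vessels. Desmin is also made by stromal cells of the rodent uterus as they turn into decidua.

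Total counts per library ran from 20975717 to 37383108. *C1qtnf6* lay between 64.7 and 168 CPM in the 12 WT libraries and between 0.0340 and 2.05 CPM in the 12 KO libraries, so the labels of genotype hold. CPM are each gene's reads per library size, scaled by TMM factors over the 24 libraries. Transcripts of 4 Y-linked genes, which mark tissue of a male fetus, summed to more than 10 CPM in 9 of the 24 libraries and to 1.70 CPM or less in the others. These were 0 of 3 WT and 1 of 3 KO libraries at gd10.5 and 1 of 3 in each genotype at gd14.5. They were 1 of 3 WT and 2 of 3 KO libraries at both gd16.5 and gd19.5.

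Short windows at recorded starts of these genes were searched for the CArG box, the sequence that SRF binds. RefSeq (GRCm38.p6) gave a promoter of 300 bases, 250 before and 50 after the start, for 6 of the 10 genes, namely *Acta2*, *Cnn1*, *Des*, *Lmod1*, *Mylk* and *Smtn*. None of the 6 held an exact CArG box, which was in 1.63% of 32851 promoters. With 1 other base allowed in its A/T core, only *Acta2* held it, in 2 places, against 9.98% of all promoters. The places lay at -84 to -75 and -34 to -25 from the start on which that window was set (base 0). That start lies inside *Acta2* as counted, whose 5′ end is at 34255590, so it need not be the first transcribed base. The windows of *Mylk* (from 34784700) and *Smtn* (up to 3539542) lie wholly inside those genes as counted. The MCAT element, CATTCC on either strand, was in 4 of the 6 (*Acta2*, *Lmod1*, *Mylk* and *Smtn*) and in 14.7% of all promoters. The promoters of *Acta2*, chr19:34255324-34255623 on the minus strand, and of *Des*, chr1:75360042-75360341 on the plus strand, are given because these genes had the highest mean levels per length of the 10 from gd16.5 on and moved in opposite directions from gd10.5 to gd14.5. Capitals mark the CArG box with 1 other base allowed.
Acta2 promoter: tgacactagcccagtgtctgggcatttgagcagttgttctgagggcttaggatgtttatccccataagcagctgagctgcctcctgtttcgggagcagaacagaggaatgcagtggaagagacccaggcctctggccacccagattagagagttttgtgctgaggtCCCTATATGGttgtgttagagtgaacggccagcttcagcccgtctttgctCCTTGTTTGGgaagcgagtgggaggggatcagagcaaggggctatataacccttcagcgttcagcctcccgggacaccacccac
Des promoter: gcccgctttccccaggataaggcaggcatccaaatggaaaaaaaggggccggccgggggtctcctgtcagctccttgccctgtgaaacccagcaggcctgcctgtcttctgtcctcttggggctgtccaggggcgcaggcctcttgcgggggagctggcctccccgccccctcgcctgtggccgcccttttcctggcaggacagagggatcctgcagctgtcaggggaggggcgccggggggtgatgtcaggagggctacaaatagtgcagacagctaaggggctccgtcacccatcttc
These matches are letters in a short window, and no binding was measured.

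Levels of different genes were compared as RPKM, the CPM divided by the exon length in kilobases. In WT MFI at gd16.5, *Des* was highest at 117 ± 30.4 RPKM (SD, n = 3), followed by *Acta2* at 45.0 ± 3.65 RPKM and *Smtn* at 27.2 ± 4.90 RPKM. These did not overlap. *Actg2* (6.92 ± 4.31 RPKM) and *Mylk* (5.49 ± 0.443 RPKM) came next and overlapped, as did *Myh11* (4.29 ± 0.404 RPKM) and *Lmod1* (3.66 ± 0.467 RPKM). *Cnn1* (0.937 ± 0.604 RPKM) overlapped *Myocd* (0.424 ± 0.117 RPKM) and *Myocd* overlapped *Tagln* (0.418 ± 0.0350 RPKM), so the lower end has no clear order. At gd10.5 the order was different: *Des* stood at 316 ± 59.1 RPKM, *Smtn* at 14.98 ± 2.09 RPKM and *Acta2* at 13.2 ± 3.21 RPKM, the last pair overlapping. *Myh11*, *Tagln*, *Lmod1*, *Cnn1* and *Myocd* were at 0.381 RPKM or less in each WT library of gd10.5.

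The smooth muscle actins gave a rising course. *Acta2* (chromosome 19, 34241090 to 34255590 of GRCm38, minus strand) encodes alpha-smooth muscle actin of vascular walls. In WT its 3 libraries stood at 35.7, 21.6 and 29.9 CPM at gd10.5, then at 79.3, 64.0 and 80.8 CPM at gd14.5. They reached 105.7, 101.0 and 90.1 CPM at gd16.5 and 99.2, 92.5 and 75.1 CPM at gd19.5. All WT libraries from gd14.5 on thus lay above all those of gd10.5, and gd16.5 lay above gd14.5 but overlapped gd19.5. *Acta2* rose from gd10.5 to gd14.5 in WT (log2 fold change 1.36 ± 0.20 SE, edgeR adjusted p 1.61e-05), and its steps of 0.41 ± 0.20 to gd16.5 and -0.15 ± 0.20 to gd19.5 did not pass edgeR's test. The former passed by limma voom (0.44, adjusted p 0.0262) and in the fit of the 6 libraries compared (0.41, adjusted p 0.0195). In KO *Acta2* stood at 33.4, 57.5 and 34.8 CPM at gd10.5, at 61.0, 69.7 and 62.4 CPM at gd14.5, at 76.9, 71.6 and 73.3 CPM at gd16.5, and at 103.3, 162.4 and 115.4 CPM at gd19.5. The last stage lay clear of the stage before it. *Acta2* rose in KO by 0.62 ± 0.20 to gd14.5 (adjusted p 0.0131) and by 0.78 ± 0.20 from gd16.5 to gd19.5 (adjusted p 0.0247). The first of these *Acta2* calls was lost without KO gd10.5 replicate 1 (0.48, adjusted p 0.0797) or replicate 3 (0.50, adjusted p 0.0701) and in the fit of the 6 libraries compared (0.64, adjusted p 0.0512), and the second without KO gd16.5 replicate 2 (0.76, adjusted p 0.0991) or replicate 3 (0.78, adjusted p 0.0617) or KO gd19.5 replicate 2 (0.57, adjusted p 0.169).

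*Actg2* (chromosome 6, 83512905 to 83536265, minus strand) encodes gamma-smooth muscle actin, the actin of visceral muscle such as myometrium. Its WT libraries stood at 4.47, 2.89 and 3.55 CPM at gd10.5, at 4.37, 5.44 and 5.93 CPM at gd14.5, at 18.5, 7.47 and 6.37 CPM at gd16.5, and at 8.64, 9.59 and 8.80 CPM at gd19.5. Replicate 1 of gd16.5 stood far above the other libraries. *Actg2* rose from gd14.5 to gd16.5 in WT (1.05 ± 0.29, adjusted p 0.0162), but without that library the value was 0.41 (adjusted p 0.218), without WT gd14.5 replicate 1 it was 0.93 (adjusted p 0.0830), and the fit of the 6 libraries compared gave 1.06 (adjusted p 0.0640). In KO *Actg2* stood at 2.91, 4.83 and 4.46 CPM at gd10.5, at 3.87, 3.91 and 4.63 CPM at gd14.5, at 5.77, 7.45 and 5.93 CPM at gd16.5 and at 13.2, 17.8 and 13.2 CPM at gd19.5. The KO rise came last, by 1.20 ± 0.29 from gd16.5 to gd19.5 (adjusted p 0.0201), with no overlap between these stages. It did not pass without any one of 4 libraries, KO gd16.5 replicate 1 (1.14, adjusted p 0.0530), replicate 2 (1.33, adjusted p 0.0532) or replicate 3 (1.15, adjusted p 0.0582), or KO gd19.5 replicate 2 (1.04, adjusted p 0.114).

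*Myh11* (chromosome 16, 14194535 to 14291372, minus strand) encodes smooth muscle myosin heavy chain, the motor of the thick filament and the most specific marker of this cell type. In WT it stood at 1.65, 1.78 and 2.71 CPM at gd10.5, at 12.5, 15.5 and 14.1 CPM at gd14.5, at 35.8, 29.6 and 32.4 CPM at gd16.5, and at 30.8, 30.7 and 23.6 CPM at gd19.5. In KO it stood at 1.98, 4.53 and 2.01 CPM, then 10.54, 12.4 and 13.5 CPM, then 21.2, 20.3 and 26.8 CPM, and lastly 34.9, 56.6 and 36.7 CPM. In both genotypes the first 3 stages did not overlap each other, and in KO gd19.5 lay above them all. *Myh11* rose to gd14.5 by 2.80 ± 0.27 in WT (adjusted p 2.38e-07) and 2.10 ± 0.26 in KO (adjusted p 3.46e-06), and again to gd16.5 by 1.22 ± 0.23 in WT (adjusted p 0.00113) and 0.90 ± 0.23 in KO (adjusted p 0.00892). These 4 *Myh11* calls passed the adjusted p in each of the 15 alternative fits, though the last, at 0.90, is under a log2 fold change of 1. The last KO step of 0.91 ± 0.23 (adjusted p 0.0251) was lost without KO gd16.5 replicate 1 (0.87, adjusted p 0.0663), KO gd16.5 replicate 2 (0.83, adjusted p 0.117) or KO gd19.5 replicate 2 (0.66, adjusted p 0.175), and the last WT step was -0.20 ± 0.23 (adjusted p 0.672).

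Of the genes that bind and regulate the thin filament, *Lmod1* (chromosome 1, 135324807 to 135368065, plus strand) encodes leiomodin, which nucleates actin filaments. It stood at 0.825, 0.836 and 1.18 CPM in WT at gd10.5, at 8.50, 8.26 and 10.1 CPM at gd14.5, at 12.5, 14.6 and 16.2 CPM at gd16.5 and at 13.4, 12.7 and 11.01 CPM at gd19.5. The KO libraries of *Lmod1* stood at 0.523, 1.71 and 0.692 CPM, then 5.13, 5.49 and 10.3 CPM, then 12.99, 7.70 and 10.6 CPM, then 15.2, 16.8 and 13.2 CPM. The gain to gd14.5 was the largest of the 10 genes in both genotypes, 3.25 ± 0.33 in WT (adjusted p 3.52e-07) and 2.83 ± 0.33 in KO (adjusted p 1.58e-06), and it passed in each of the 15 alternative fits. The later steps of *Lmod1* did not pass edgeR's test on the 24 libraries, at 0.69 ± 0.27 to gd16.5 in WT (adjusted p 0.0862) and 0.58 ± 0.28 in KO (adjusted p 0.133). The WT step to gd16.5 passed by limma voom (0.64, adjusted p 0.00789), in the fit of the 6 libraries compared (0.70, adjusted p 0.00461) and with the Y-linked covariate (0.74, adjusted p 0.0442), and the KO step passed by limma voom (0.83, adjusted p 0.00209) and without KO gd14.5 replicate 3 (0.97, adjusted p 0.0198).

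*Cnn1* (chromosome 9, 22099216 to 22109630, plus strand) encodes calponin, which holds back the myosin ATPase. It was low early, at 0.550, 0.728 and 0.296 CPM in WT at gd10.5 and 0.526, 0.552 and 0.799 CPM at gd14.5, with 7 to 27 reads per library. It then stood at 4.46, 1.77 and 1.46 CPM at gd16.5 and 2.63, 3.51 and 2.92 CPM at gd19.5. In KO it stood at 0.261, 0.381 and 0.450 CPM, at 0.535, 0.592 and 0.804 CPM, at 2.14, 1.63 and 1.504 CPM and at 5.02, 5.79 and 5.92 CPM. The step of *Cnn1* to gd14.5 was 0.18 ± 0.39 in WT and 0.80 ± 0.42 in KO, neither past the threshold. In KO each library of gd14.5 still lay above each of gd10.5. The step to gd16.5 was 2.06 ± 0.35 in WT (adjusted p 0.000409) and 1.45 ± 0.36 in KO (adjusted p 0.00625). Whether *Cnn1* rose later than *Myh11* and *Lmod1* was not tested. In KO *Cnn1* rose once more to gd19.5, by 1.67 ± 0.32 (adjusted p 0.00626). These 3 *Cnn1* calls passed in each of the 14 alternative fits that tested the gene, with 1.40 the lowest WT value, without WT gd16.5 replicate 1.

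*Smtn* (chromosome 11, 3517523 to 3540612, minus strand) encodes smoothelin, an actin-associated protein of contractile smooth muscle. It stood at 62.1, 58.8 and 76.0 CPM in WT and 74.0, 86.8 and 60.0 CPM in KO at gd10.5. At gd14.5 all 6 libraries were higher, at 137, 134 and 120 CPM in WT and 114, 145 and 127 CPM in KO. *Smtn* rose over this step by 0.99 ± 0.15 in WT (adjusted p 2.32e-05) and 0.81 ± 0.15 in KO (adjusted p 0.000206). It stayed between 84.7 and 144 CPM in the 12 later libraries. No later step of *Smtn* passed edgeR's test on the 24 libraries. The KO step to gd16.5, -0.39 ± 0.15 (adjusted p 0.0676), passed by limma voom (-0.44, adjusted p 0.00623), with no filter on low counts (-0.41, adjusted p 0.0437) and without KO gd16.5 replicate 3 (-0.54, adjusted p 0.0198). Of its 4380 exonic bases, 714 are shared with genes on the other strand.

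*Tagln* (chromosome 9, 45929619 to 45936058, minus strand) encodes transgelin (SM22-alpha), usually among the most abundant transcripts of smooth muscle, yet it had only 9 to 32 reads per library. Much of the gene overlaps others. Of its 1988 exonic bases, 1349 (67.9%) are also exonic in genes of the opposite strand, 1241 of them in the antisense gene *Gm48529* and 108 in *Pcsk7*. By the default settings that the methods state, counting ignores strand and leaves out reads that fall in the exons of both genes, and *Gm48529* itself had only 14 to 48 reads per library. *Tagln* lay between 0.343 and 0.757 CPM at gd10.5 and between 0.709 and 1.09 CPM at gd19.5 over both genotypes, and none of its steps passed the test. How far the overlap lowered the count of *Tagln* was not tested, and these values may understate its level in the tissue. Of the other members, *Mylk* shared 772 of 11263 exonic bases with opposite-strand genes and *Des* 220 of 3754, and the other 6 shared none.

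**Figure D1:**
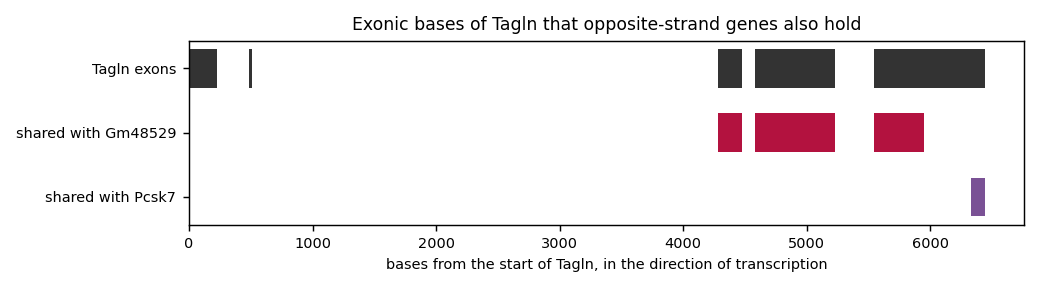
Exons of *Tagln* (black) and the exonic bases that 2 opposite-strand genes also hold (red, *Gm48529*; purple, *Pcsk7*), in bases from the start of *Tagln*. All of the 2 exons nearest the 5′ end and part of the last exon are unshared, and 1349 of 1988 bases are shared.

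*Des* ran the other way. It encodes desmin (chromosome 1, 75360329 to 75368579, plus strand), the intermediate filament that ties contractile units together in muscle. In WT it stood at 1176, 1412 and 968 CPM at gd10.5, 571, 532 and 518 CPM at gd14.5, 374, 370 and 570 CPM at gd16.5, and 516, 423 and 434 CPM at gd19.5. The KO libraries of *Des* were spread at gd10.5, at 1210, 561 and 1527 CPM, and stood at 644, 758 and 395 CPM at gd14.5, 284, 348 and 362 CPM at gd16.5 and 431, 536 and 476 CPM at gd19.5. *Des* fell from gd10.5 to gd14.5, with a log2 fold change of -1.13 ± 0.27 in WT (adjusted p 0.00176) and -0.88 ± 0.27 in KO (adjusted p 0.0115), and in KO again to gd16.5 (-0.85 ± 0.27, adjusted p 0.0287). The WT call passed in each of the 15 alternative fits. The first KO call of *Des* was lost without KO gd10.5 replicate 3 (-0.56, adjusted p 0.105) or KO gd14.5 replicate 3 (-0.64, adjusted p 0.0743), and in the fit of the 6 libraries compared (-0.87, adjusted p 0.138). The second was lost without KO gd14.5 replicate 1 (-0.80, adjusted p 0.0814) or replicate 2 (-0.65, adjusted p 0.145), and without KO gd16.5 replicate 1 (-0.75, adjusted p 0.112) or replicate 2 (-0.88, adjusted p 0.0687), and with the Y-linked covariate (-0.67, adjusted p 0.0573).

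The kinase of contraction and the coactivator of the program were also measured. *Mylk* (chromosome 16, 34745210 to 35002420, plus strand) encodes myosin light chain kinase. It stood at 18.2, 21.7 and 17.8 CPM in WT and 17.7, 23.6 and 19.4 CPM in KO at gd10.5, and at 48.9, 48.2 and 39.9 CPM in WT and 37.9, 45.9 and 43.1 CPM in KO at gd14.5. It then stood at 56.3, 63.2 and 65.9 CPM in WT and 46.7, 39.4 and 46.9 CPM in KO at gd16.5, and at 57.5, 52.8 and 41.5 CPM in WT and 52.4, 57.4 and 52.5 CPM in KO at gd19.5. *Mylk* rose to gd14.5 in both genotypes, by 1.24 ± 0.13 in WT (adjusted p 4.43e-07) and 1.06 ± 0.13 in KO (adjusted p 2.69e-06). A further WT step of 0.44 ± 0.13 to gd16.5 (adjusted p 0.0208) was lost without WT gd14.5 replicate 3 (0.35, adjusted p 0.114), WT gd16.5 replicate 2 (0.42, adjusted p 0.0603) or WT gd16.5 replicate 3 (0.39, adjusted p 0.0748), and the KO step of *Mylk* was 0.07 ± 0.13.

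*Myocd* (chromosome 11, 65176561 to 65269989, minus strand) encodes myocardin and had 10 to 86 reads per library. Its WT libraries stood at 0.825, 0.675 and 0.888 CPM at gd10.5, 0.973, 1.19 and 1.05 CPM at gd14.5, 3.55, 2.52 and 2.09 CPM at gd16.5, and 2.31, 2.54 and 2.04 CPM at gd19.5. In KO they were 1.12, 0.381 and 0.865 CPM, 0.818, 0.953 and 1.61 CPM, 2.14, 2.37 and 1.504 CPM, and 2.45, 2.76 and 2.28 CPM. Late WT libraries lay above all early ones. *Myocd* rose from gd14.5 to gd16.5 by 1.35 ± 0.29 in WT (adjusted p 0.00291), and passed in each of the 15 alternative fits. The KO step of 0.85 ± 0.29 (adjusted p 0.0401) was lost without KO gd14.5 replicate 1 (0.67, adjusted p 0.166), KO gd14.5 replicate 2 (0.74, adjusted p 0.148), KO gd16.5 replicate 1 (0.82, adjusted p 0.0990) or KO gd16.5 replicate 2 (0.71, adjusted p 0.157), and under 4 other settings, with adjusted p from 0.0562 to 0.0685. *Myocd* and *Cnn1* thus first passed the test over the step to gd16.5, where *Myh11* passed too. *Myh11* and *Lmod1* had passed over the step to gd14.5. An order of these genes in time was not tested.

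**Figure D2:**
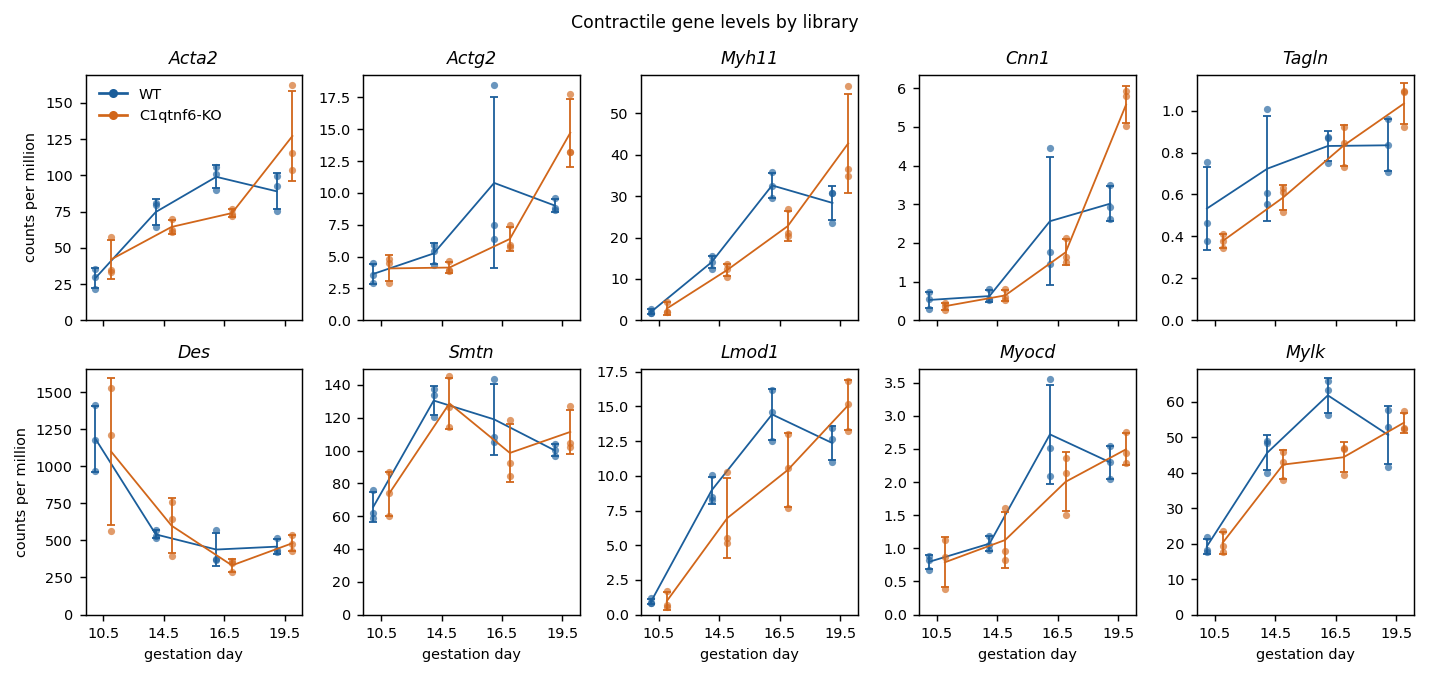
CPM of the 10 genes in each of the 24 libraries (points) by gestation day, with group means joined by lines and bars of 1 SD (n = 3), blue for WT and orange for C1qtnf6-KO; the vertical axis starts at 0 in each panel. *Acta2* runs from 21.6 to 162.4 CPM and *Myh11* from 1.65 to 56.6 CPM with the high values late, while *Des* is highest at gd10.5.

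Counted over the 10 genes, 5 rose and 1 fell from gd10.5 to gd14.5 in WT, and the same counts, 5 and 1, were found in KO. Over the 19299 genes tested, 26.2% rose and 27.8% fell in WT and 24.7% rose and 26.4% fell in KO. The median of the 10 was 0.76 in WT and 0.71 in KO, against -0.02 and -0.00362 for all genes. From gd14.5 to gd16.5, 5 of the 10 rose and 0 fell in WT (backgrounds 9.73% and 8.37%), with a median of 0.56, and 3 rose and 1 fell in KO (backgrounds 12% and 11.6%), with a median of 0.55. Without KO gd14.5 replicate 1 or 2 or KO gd16.5 replicate 1 or 2, 2 of these 4 KO calls were left, *Myh11* and *Cnn1*. From gd16.5 to gd19.5, edgeR called 0 of the 10 in WT, where 1.97% of all genes rose and 2.67% fell, 1 member had an unadjusted p under 0.05, and DESeq2 and limma voom also called 0. In KO 4 rose and 0 fell (backgrounds 3.02% and 2.96%), namely *Acta2*, *Actg2*, *Myh11* and *Cnn1*, and the count was 1 without KO gd16.5 replicate 2 or KO gd19.5 replicate 2 and 2 without KO gd16.5 replicate 1 or replicate 3. Since this is bulk tissue, fewer cells of a type and less RNA per cell cannot be told apart.

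The comparison of the genotypes asked whether loss of *C1qtnf6* shifted the contractile genes at any stage. By edgeR's quasi-likelihood test, 0 of the 10 genes passed at any of the 4 stages. The means of 9 of the 10 were lower in KO at gd16.5, and those of all 10 were higher at gd19.5. At gd10.5, 6 of the 10 had a positive and 4 a negative log2 fold change (median 0.06, all genes 0.01), every adjusted p was 1.00, and 0 had an unadjusted p under 0.05. Of 17480 genes tested there, 0% were higher and 0.00572% lower in KO, and 0 of the 10 members had non-overlapping groups against 1.83% (KO above) and 2.35% (KO below) of all genes. The KO library that stood apart, replicate 2, was the highest of its group in *Acta2*, *Actg2*, *Myh11*, *Smtn*, *Lmod1* and *Mylk* and the lowest in *Des*, *Tagln* and *Myocd*, and it was also the 1 library of gd10.5 with Y-linked transcripts (71.0 CPM). Its summed trophoblast markers stood at 20074 CPM against 7377 and 5705 CPM in the other KO libraries, its endothelial markers at 1601 CPM against 2232 and 2177 CPM, and its stromal markers at 3722 CPM against 4448 and 12351 CPM. Such sums can rest on a few abundant markers, and their part in the values of this library was not tested. Without it the log2 fold change of *Lmod1* moved from 0.05 to -0.62, that of *Myocd* from -0.000345 to 0.33, that of *Des* from -0.10 to 0.21 and that of *Myh11* from 0.48 to -0.02.

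At gd14.5 the members lay close together. Of the 10, 3 had a positive and 7 a negative log2 fold change, with a median of -0.17 and a range of -0.38 (*Lmod1*) to 0.14 (*Des*). *Acta2* (-0.22 ± 0.09) and *Actg2* (-0.34 ± 0.14) had an unadjusted p under 0.05, with an adjusted p of 0.728 for both. The test called 0.0111% of 18024 genes higher and 0.00555% lower, and 0 members had non-overlapping groups, against 6.42% of genes with KO above and 6.1% with KO below. DESeq2 and limma voom also called 0 of the 10 at gd10.5 and at gd14.5.

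At gd16.5 9 of the 10 genes had lower means in KO, with a median log2 fold change of -0.44 against 0.01 for all genes. In 4 genes each KO library lay below each WT library: *Acta2* (-0.41 ± 0.08, adjusted p 0.354), *Myh11* (-0.51 ± 0.13, adjusted p 0.376), *Mylk* (-0.47 ± 0.10, adjusted p 0.356) and *Des* (-0.39 ± 0.18, adjusted p 0.463). Of all 17071 genes tested, 9.62% had KO below and 8.11% KO above in this way, and 0% were called higher and 0.00586% lower. *Actg2* (-0.75 ± 0.39), *Cnn1* (-0.55 ± 0.43), *Lmod1* (-0.46 ± 0.20), *Myocd* (-0.43 ± 0.27) and *Smtn* (-0.26 ± 0.16) overlapped between the genotypes, and *Tagln* was at 0.02 ± 0.23. The values of *Actg2* and *Cnn1* rest on WT gd16.5 replicate 1, without which *Actg2* was at -0.09 and *Cnn1* changed sign to 0.13. While edgeR called 0 of the 10, with 4 at an unadjusted p under 0.05 (1894 of 17071 over all genes), DESeq2 on the same 6 libraries called 3 lower, *Acta2* (adjusted p 0.00894), *Mylk* (adjusted p 0.0136) and *Myh11* (adjusted p 0.0475), where it called 0.574% of all genes lower, and limma voom called 0.

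At gd19.5 the direction was opposite, and the means of all 10 genes were higher in KO, with a median of 0.27 against -0.01 for all genes. Each KO library lay above each WT library in *Cnn1* (0.86 ± 0.15, adjusted p 0.0838), *Actg2* (0.68 ± 0.13, adjusted p 0.118), *Myh11* (0.57 ± 0.18, adjusted p 0.238) and *Acta2* (0.49 ± 0.16, adjusted p 0.245). Of 17397 genes, 12.8% had KO above and 8.55% KO below in this way, and 0.0287% were called higher and 0.0862% lower. The other 6 members overlapped, from 0.05 ± 0.10 in *Des* to 0.28 ± 0.23 in *Tagln*. With edgeR at 0 of the 10 and 5 members at an unadjusted p under 0.05 (2354 of 17397 over all genes), DESeq2 called 2 higher, *Actg2* (adjusted p 0.00193) and *Cnn1* (adjusted p 0.00337), where it called 0.592% of all genes higher, and limma voom called 0. KO gd19.5 replicate 2 was the highest of its group in every member but *Cnn1* and *Tagln*. It held 126.8 CPM of Y-linked transcripts, against 40.0 CPM in KO gd19.5 replicate 3. Without replicate 2 *Des* was at -0.04. Leaving out each library in turn, the median of the 10 at gd19.5 lay between 0.22 and 0.30. Over the 15 alternative fits *Acta2* ran from 0.28 to 0.62 and *Myh11* from 0.31 to 0.70. With Y-linked expression as a covariate, the medians of the 10 were -0.42 at gd16.5 and 0.30 at gd19.5, and 0 members passed at either stage.

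**Figure D3:**
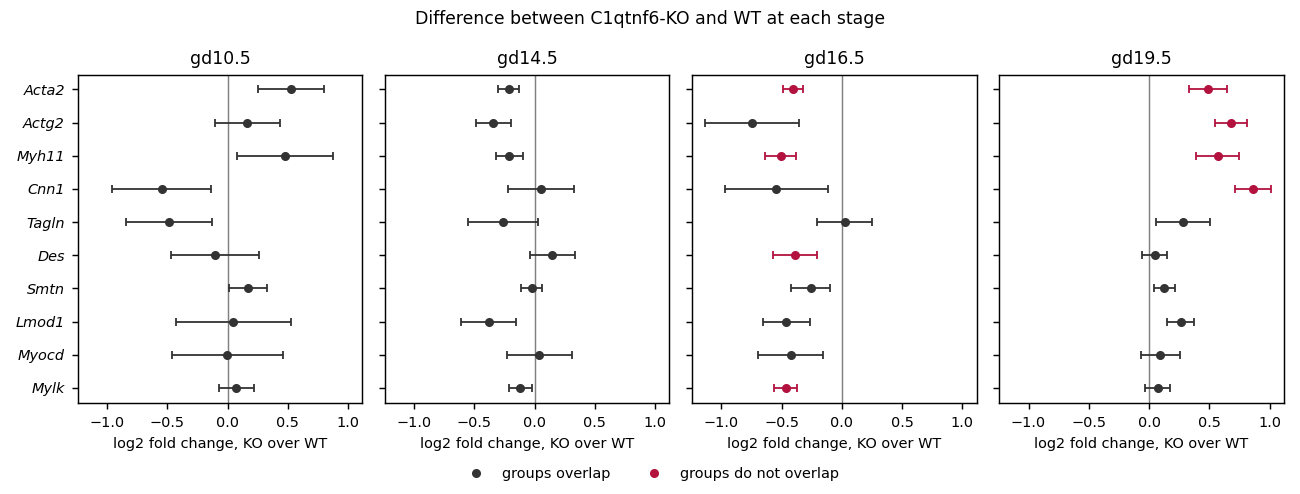
Log2 fold change of KO over WT (points) with its standard error (bars) for the 10 genes at each stage, from edgeR on 6 libraries; red marks genes whose 3 KO and 3 WT libraries do not overlap. Red points lie left of 0 at gd16.5 (*Acta2*, *Myh11*, *Des*, *Mylk*) and right of 0 at gd19.5 (*Acta2*, *Actg2*, *Myh11*, *Cnn1*), and none passed the adjusted test.

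Whether the genotype difference varied over the 4 stages was tested as a genotype-by-stage interaction over all 24 libraries. In this fit 0 of the 10 members and 0% of 19299 genes were called, with adjusted p from 0.560 (*Acta2*) to 0.881 (*Myocd*) among the members. At an unadjusted p under 0.05 there were 5 members (*Acta2*, *Actg2*, *Myh11*, *Cnn1* and *Mylk*) and 1396 genes in all. The likelihood ratio test of DESeq2 called 0 of the 10 too.

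The spread within groups showed which genes varied together. Deviations of log2 CPM from the group mean, over 24 libraries, had a Pearson r of 0.75 between *Myh11* and *Lmod1*, 0.68 between *Actg2* and *Cnn1*, 0.68 between *Myh11* and *Smtn*, and 0.65 between *Acta2* and *Myh11*. *Actg2* and *Cnn1* thus formed one pair, with r to *Myh11* of 0.36 and 0.000612. *Des* ran against *Lmod1* (-0.71) and *Myh11* (-0.54). These are descriptions, as libraries of a group share a stage and genotype and some points weigh heavily. In WT gd16.5 replicate 1, *Actg2* and *Cnn1* were 0.94 and 0.96 above their group mean on the log2 scale, while *Myh11* was 0.14 above it and *Lmod1* at -0.20. In KO gd10.5 replicate 2, *Lmod1* was at 0.94 and *Myh11* at 0.77, while *Des* was at -0.85 and *Myocd* at -0.82. KO gd14.5 replicate 3 had *Lmod1* at 0.63 and *Des* at -0.55. Y-linked transcripts were present in all 3 of these libraries, at 89.1, 71.0 and 170.1 CPM, and their part in the spread was not tested beyond the covariate above.

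**Figure D4:**
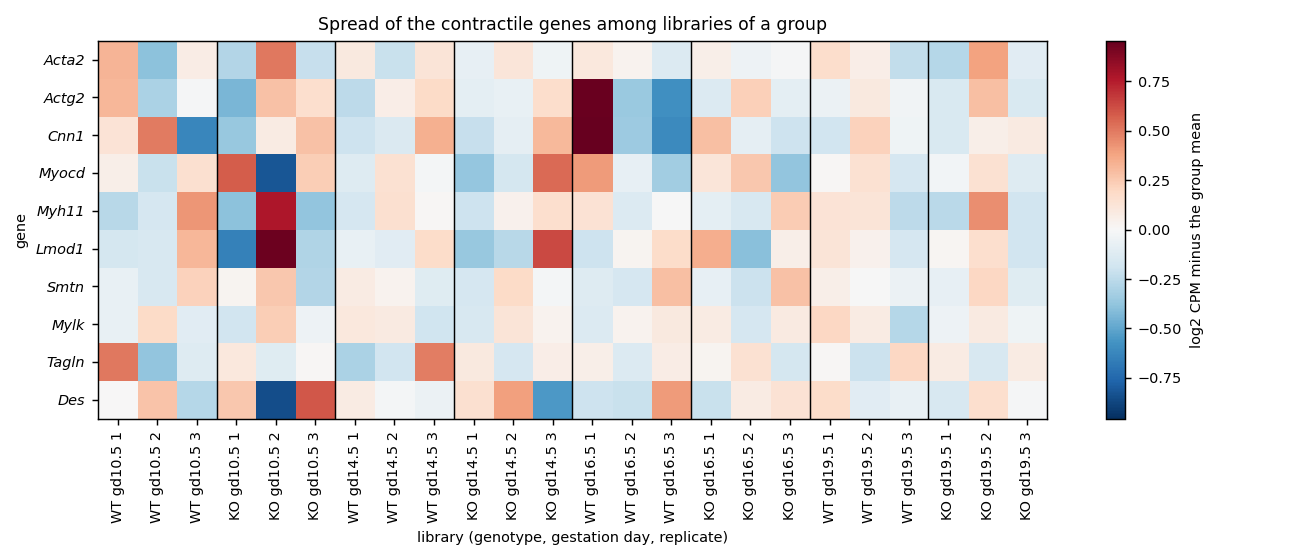
Log2 CPM of the 10 genes in each library minus the mean of its group of 3 (red above, blue below, white at the mean), with lines between groups. The strongest red tiles are *Actg2* (0.94) and *Cnn1* (0.96) in WT gd16.5 replicate 1 and *Lmod1* (0.94) in KO gd10.5 replicate 2, where *Des* (-0.85) and *Myocd* (-0.82) are blue.

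Over all genes, the 10 whose log2 CPM was most alike to the mean standardized profile of the members over the 24 libraries were *Psen2*, *Spin1*, *Hs3st1*, *Ctns*, *Oit3*, *Tmem115*, *Cobl*, *Kdm5b*, *Eln* and *Smad4*, with Pearson r from 0.972 to 0.964. *Eln* encodes elastin, a matrix protein of artery walls. By the deviations within groups they were *Pou2af1* (0.845), *Olfml2b*, *Mtcl1*, *Rogdi*, *Col16a1*, *Gm43414*, *Csf2ra*, *Trmt12*, *Kdm5d* and *Mgat1* (0.719). *Pou2af1* and *Gm43414* averaged only 0.29 and 0.17 CPM, where 3 reads make 0.0773 to 0.149 CPM, so their r rests on few reads. All were picked as the highest r among the genes that passed the filter. None of these genes belongs to any of the pathway and marker lists described next, and *Kdm5d* is Y-linked.

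Other genes of the contractile pathway moved both ways over the stages. Of 24 further genes of the contractile apparatus, 8 rose and 5 fell from gd10.5 to gd14.5 in WT, near the 26.2% and 27.8% of all genes, and 8 rose and 4 fell in KO. To gd16.5, 6 rose and 3 fell in WT (all genes 9.73% and 8.37%), while 4 rose and 5 fell in KO (12% and 11.6%). *Myl9*, the regulatory light chain that *Mylk* phosphorylates, rose by 1.83 ± 0.31 in WT and 1.16 ± 0.30 in KO to gd14.5, and *Flnc*, filamin C, fell by 1.59 on the log2 scale in WT. Of 15 tested genes that control contraction, 5 rose and 5 fell to gd14.5 in WT, with *Cacna1c*, the L-type calcium channel, up (1.49 ± 0.16) and the soluble guanylate cyclase subunit *Gucy1b1* down (-1.50 ± 0.22). Among 12 transcription factors of smooth muscle, 4 rose and 5 fell to gd14.5 in WT, *Prrx1* being higher (1.58 ± 0.20) and *Klf5* lower (-1.14 ± 0.23), and *Srf* was lower too (-0.39 ± 0.08). Among 8 genes of myometrial receptors and gap junctions, 4 rose and 3 fell. The angiotensin receptor *Agtr1a* rose by 3.55 ± 0.30 and the prostaglandin F receptor *Ptgfr* by 2.40 ± 0.58, while *Oxtr*, the oxytocin receptor, had only 2 to 20 reads per library over the series.

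Between the genotypes, edgeR called 0 genes of any of these lists at any stage. At an unadjusted p under 0.05 there were 2 apparatus genes, 1 control gene, 2 transcription factors and 4 receptor genes at gd16.5, where 1894 of all 17071 genes were. The same counts for gd19.5 were 3, 2, 0 and 0, where 2354 of all 17397 genes were. At gd16.5 a negative log2 fold change was found in 19 of 24 apparatus genes (median -0.19), 10 of 15 control genes (-0.04), 11 of 12 transcription factors (-0.21) and 5 of 6 tested receptor genes (-0.50). The largest in size there were *Pgr*, the progesterone receptor (-0.72 ± 0.23, adjusted p 0.421), *Ednra*, the endothelin receptor (-0.55 ± 0.21, adjusted p 0.433), *Ldb3* (0.49 ± 0.20), *Pdlim3* (-0.46 ± 0.32), *Tead3* (-0.40 ± 0.14), *Foxf1* (-0.38 ± 0.13), and among the control genes *Prkg1* (-0.39 ± 0.14) and *Gucy1a1* (-0.29 ± 0.14). At gd19.5 a positive value was found in 18 of 24, 12 of 15, 8 of 12 and 5 of 6, with medians of 0.06, 0.04, 0.13 and 0.10. *Pde5a*, which breaks down cyclic GMP (0.46 ± 0.09, adjusted p 0.112), *Gucy1a1* (0.44 ± 0.14, adjusted p 0.238), *Kcnmb1* (0.55 ± 0.37), *Pgm5* (0.37 ± 0.21), *Heyl* (0.41 ± 0.25), *Hey2* (0.21 ± 0.28), *Pgr* (-0.23 ± 0.12) and *Gja1* (0.17 ± 0.08) were the largest in size of their lists. At gd10.5 and gd14.5 the 4 medians lay between -0.04 and 0.15. *Oxtr* had the largest value at gd14.5 (1.03 ± 0.33, adjusted p 0.693), on 15 to 20 reads per library in KO and 7 to 10 in WT, which did not overlap. The largest of the control genes there were *Rock1* (0.31 ± 0.06) and *Rock2* (0.28 ± 0.05), both with an adjusted p of 0.452 and each KO library above each WT library. Of all 18024 genes tested at gd14.5, 6.42% had KO above WT in this way.

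Markers of other cell types were measured beside these values. At gd16.5 all 9 markers of decidual and uterine stroma had negative values (median -0.26, 0 called), the largest in *Hoxa11* (-0.73 ± 0.17) and *Hand2* (-0.68 ± 0.24), and their summed level was 4023 to 4317 CPM in KO against 4929 to 5270 CPM in WT. All 8 endothelial markers did too (median -0.34, 0 called), among them *Cdh5* (-0.42 ± 0.23) and *Tek* (-0.41 ± 0.12), at 876 to 1268 CPM against 1208 to 1640 CPM, and 7 of 10 pericyte and mural cell markers (median -0.31, 0 called), at 395 to 479 CPM against 428 to 525 CPM. The largest pericyte values were in *Kcnj8* (0.70 ± 0.27) and *Higd1b* (-0.60 ± 0.27). The 9 trophoblast markers went both ways, with 6 positive and 3 negative values (median 0.11, 0 called) from 1.36 in *Prl3d1* to -0.96 in *Gcm1*. Their summed level did not overlap between the genotypes, at 48207 to 53269 CPM in KO against 30310 to 41717 CPM in WT. A summed CPM weights each marker by its level, so it need not follow most markers of a list. At gd19.5 all 8 endothelial markers (median 0.16) and 9 of 10 pericyte markers (median 0.34) had positive values, at 1158 to 1436 CPM against 1059 to 1222 CPM and at 411 to 518 CPM against 396 to 427 CPM, while 3 of 9 stromal markers (median -0.05) did. Of the trophoblast markers 3 had positive and 6 negative values (median -0.20), and their sum was 26293 to 34669 CPM in KO and 29324 to 38963 CPM in WT. At gd16.5, 5 of 9 stromal, 3 of 8 endothelial and 5 of 10 pericyte markers had an unadjusted p under 0.05, as did 1894 of all 17071 genes. At gd19.5 the counts were 4, 3 and 2, and 2354 of all 17397 genes. The part of these differences in the values of the contractile genes was not tested.

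The marker lists also moved over the stages. From gd10.5 to gd14.5 in WT, where 26.2% of all genes rose and 27.8% fell, 6 of 10 pericyte markers rose and 2 fell (median 0.89), *Higd1b* by 2.21 ± 0.33 and *Cox4i2* by 1.88 ± 0.39, while 6 of 9 stromal markers fell and 2 rose (median -1.60), with *Bmp2* at -3.71 ± 0.51 and *Lum*, lumican, at 3.37 ± 0.40. Of the endothelial markers 0 rose and 4 fell, with *Cldn5* at -1.45 ± 0.25 and *Egfl7* at -0.82 ± 0.16. From gd16.5 to gd19.5, 0 pericyte and 0 stromal markers were called in WT (medians -0.18 and 0.06), where 1.97% of all genes rose and 2.67% fell. At an unadjusted p under 0.05 there were 1 and 0, and 3975 of all 19299 genes. In KO 1 of 10 pericyte markers rose and 1 fell (median 0.40), and 1 of 9 stromal markers rose (median 0.62). Of all genes 3.02% rose and 2.96% fell over this KO step. Striated muscle was nearly absent: the 8 skeletal muscle markers summed to 3.10 to 6.77 CPM in all 24 libraries, and *Myh1*, *Myh2* and *Myh4* had at most 2 reads in any library. The 8 heart muscle markers summed to 17.0 to 97.8 CPM. Of these *Myl4* had 245 to 2704 reads per library and *Nppa* 0 to 13. Among other transcripts, the nearest to *Acta2* and to *Actg2* was that of the skeletal actin *Acta1*, at 85.4% identity over 1133 bases and 85.0% over 1137 bases, and reads that fit several places were left out by the counting.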

How the data were processed

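Total RNA of mouse MFI was sequenced as strand-specific polyA libraries, 3 in each of 8 groups. According to the methods of the study and the submitters' processing notes, the authors trimmed reads with Trim Galore 0.6.4, aligned them to GRCm38 with STAR 2.7.3a and made the deposited gene counts with featureCounts of Subread 2.0.0, whose default settings ignore strand and leave out reads that fit several places or several genes. The deposited counts are whole numbers and were not normalized. Differential expression in the study was tested with DESeq2.

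Here the counts were tested in R 4.3.3 with edgeR 4.0.16 (quasi-likelihood test, TMM scaling, filterByExpr with a minimum count of 10 and a minimum total of 15). KO was compared with WT on the 6 libraries of a stage. Stage steps within a genotype and the genotype-by-stage interaction were fitted on all 24 libraries. A gene was called at a Benjamini-Hochberg adjusted p under 0.05 over all genes tested, and errors are standard errors unless given as SD. Log2 CPM used a prior count of 2, and RPKM used the exon lengths in the table. Libraries of 20975717 to 37383108 counts leave the lowest member, *Tagln* at 9 to 32 reads, with a large counting error. The scripts were tested on simulated data. Exons were read from GENCODE M21 and transcripts compared with BLAST 2.17.0 in Python 3.11.15. DESeq2 1.42.0 and limma 3.58.1 (voom with quality weights), other scaling and filters, a replicate block and leaving out each library were tried as alternatives. The bias-adjusted edgeR test, the contrast of gd19.5 with gd16.5 and the Y-linked covariate were chosen after seeing the data.

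Genes were named by rule: the 10 members, the 10 genes most alike to them by level and by deviation, and for each other list the 2 genes with the largest absolute log2 fold change in a comparison. The text keeps to part of that ranking, chosen after the values were seen: the WT step from gd10.5 to gd14.5 and KO against WT at gd16.5 and gd19.5, there not for every list. *Srf*, *Oxtr*, *Rock1*, *Rock2*, *Myh1*, *Myh2*, *Myh4* and *Nppa* were named outside it, after their values were seen. The members and all lists were chosen with earlier results of these data known. Replicates 3 to 5 in the titles of the KO libraries are replicates 1 to 3 in their descriptions, which were used here.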

Additional observations from a re-analysis of the deposited data

Results flagged for a closer look

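In *Acta2* and *Myh11*, each KO library lay below each WT library at gd16.5 and above each WT library at gd19.5. Of all genes tested, 9.62% lay below in this way at gd16.5 and 12.8% above at gd19.5. The share of all genes that did both was not counted. The difference between the log2 fold changes at gd19.5 and gd16.5, a contrast chosen after seeing the data, was 0.94 ± 0.28 SE for *Acta2* (edgeR adjusted p 0.198) and 1.11 ± 0.32 for *Myh11* (adjusted p 0.190). Neither passed, and 0 of 19299 genes did. The unadjusted edgeR p was 0.00297 for *Acta2* and 0.00273 for *Myh11*. Both genes were picked by that non-overlap in the same libraries, so these p-values are not a separate test of it. How many of all genes had such a p was not counted. For the other members that did not overlap at one of these stages, the same difference was 1.46 ± 0.41 for *Actg2* (adjusted p 0.176), 1.44 ± 0.45 for *Cnn1* (adjusted p 0.212), 0.58 ± 0.18 for *Mylk* (adjusted p 0.212) and 0.47 ± 0.38 for *Des* (adjusted p 0.589). Summed endothelial markers ran the same way, below WT in median at gd16.5 (1028 against 1241 CPM) and above it at gd19.5 (1242 against 1073 CPM), and their part was not tested.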

How the results depend on the processing

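The calls of *Acta2*, *Myh11*, *Smtn*, *Lmod1*, *Mylk* and *Des* from gd10.5 to gd14.5 in WT passed the adjusted p in each of the 15 alternative fits, and so did those of *Myh11*, *Smtn*, *Lmod1* and *Mylk* over this step in KO. *Smtn*, at 0.99 and 0.81, is under the log2 fold change of 1 that a further alternative required. Between the genotypes the count of members called stayed at 0 at gd10.5 and gd14.5 under every alternative. At gd16.5 it was 3 by DESeq2 and 1 (*Mylk*, adjusted p 0.0417) with no filter on low counts. At gd19.5 it was 2 by DESeq2, 4 with no filter and 2 with the replicate block. With no filter, 114 genes in all were called at gd16.5 and 675 at gd19.5, against 1 and 20 with it, while limma voom, the bias-adjusted test, other size factors, the fit of all 24 libraries and the Y-linked covariate called 0 members at every stage. The cause was not tested. The adjusted p of the 15 alternatives lay between 0.00894 and 0.796 for *Acta2* at gd16.5, between 2.2e-06 and 0.570 for *Actg2* at gd19.5 and between 3.92e-05 and 0.520 for *Cnn1* at gd19.5. With a fold change of more than 2 required (log2 over 1), 3 members were called from gd10.5 to gd14.5 in KO, 1 from gd14.5 to gd16.5 and 2 from gd16.5 to gd19.5. With the Y-linked covariate 2 were called from gd14.5 to gd16.5 in KO. Where each library had to hold at least 10 counts, *Cnn1* and *Tagln* left the list and the medians were 1.13 (WT, gd14.5 against gd10.5) and 0.42 (KO, gd16.5 against gd14.5). By limma voom the median was 0.89 for KO gd14.5 against gd10.5.

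The labels do not say whether the replicate numbers pair the libraries. Deviations of same-numbered WT and KO libraries correlated from -0.46 to 0.41, and at no stage were all 3 over 0.1. All 3 were positive at gd14.5 (0.027 to 0.17) and at gd19.5 (0.038 to 0.11). With 3 libraries a group, these values cannot exclude a pairing. With the replicate block the log2 fold change of *Lmod1* at gd10.5 was -0.094 and that of *Myocd* at gd14.5 was -0.00197, *Actg2* (adjusted p 0.0402) and *Cnn1* (adjusted p 0.0468) were called at gd19.5, the KO rise of *Myocd* to gd16.5 was lost (adjusted p 0.0562), and 70 genes in all were called at gd19.5 against 20 without it.

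The members' log2 fold changes were counted once for each gene, comparison and alternative. Of these values 58 changed sign, 48 of them to a value under 0.2 in size, while 1368 kept both sign and call. A gene in a given comparison can be among the 58 several times. With no filter *Tagln* was at -0.00663 for WT gd19.5 against gd16.5. By limma voom *Actg2* was at -0.094, *Des* at 0.044, *Lmod1* at -0.50, *Myocd* at 0.26 and *Mylk* at -0.039 for KO over WT at gd10.5, *Smtn* at 0.014 and *Myocd* at -0.074 at gd14.5, and *Tagln* at -0.085 for WT gd19.5 against gd16.5. *Myocd* at gd10.5 was 0.00419 by the bias-adjusted test and 0.00134 in the fit of all 24 libraries. With the Y-linked covariate *Myh11* was at -0.045, *Des* at 0.24, *Lmod1* at -0.66, *Myocd* at 0.34 and *Mylk* at -0.052 for KO over WT at gd10.5, and *Tagln* at -0.066 at gd16.5. In that fit *Cnn1* was at -0.11 for WT gd14.5 against gd10.5, *Tagln* at -0.00192 for WT gd19.5 against gd16.5 and *Actg2* at -0.017 for KO gd14.5 against gd10.5.

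Leaving out one library at a time moved the count of called members between 4 and 6 (KO gd14.5 against gd10.5), 2 and 5 (KO gd16.5 against gd14.5) and 1 and 4 (KO gd19.5 against gd16.5), and the medians between 0.71 and 0.86 (WT gd14.5 against gd10.5), 0.64 and 0.87 (KO gd14.5 against gd10.5) and 0.43 and 0.64 (KO gd16.5 against gd14.5). For KO over WT at gd10.5, *Lmod1* ran from -0.62 to 0.34, *Myocd* from -0.33 to 0.33, *Des* from -0.42 to 0.21, *Myh11* from -0.023 to 0.72 and *Mylk* from -0.049 to 0.17. At gd14.5, *Cnn1* ran from -0.11 to 0.22, *Smtn* from -0.12 to 0.054, *Myocd* from -0.27 to 0.21 and *Des* from -0.061 to 0.37. At gd16.5, *Cnn1* ran from -0.82 to 0.13 and *Tagln* from -0.066 to 0.11. At gd19.5, *Des* ran from -0.036 to 0.14 and *Mylk* from -0.043 to 0.17. Among the stage steps, *Cnn1* ran from -0.069 to 0.51 (WT gd14.5 against gd10.5), *Actg2* from -0.17 to 0.16 (KO gd14.5 against gd10.5) and *Mylk* from -0.00698 to 0.15 (KO gd16.5 against gd14.5). For WT gd19.5 against gd16.5, *Actg2* ran from -0.53 to 0.38, *Des* from -0.044 to 0.30, *Tagln* from -0.11 to 0.11 and *Cnn1* from -0.045 to 0.90. The fit of the 6 libraries compared lost the calls of *Actg2* (WT gd16.5 against gd14.5), *Acta2* and *Des* (KO gd14.5 against gd10.5) and *Myocd* (KO gd16.5 against gd14.5, adjusted p 0.0685), and gained *Actg2* (0.55, WT gd14.5 against gd10.5, adjusted p 0.0491; 0.64, KO gd16.5 against gd14.5, adjusted p 0.0200), *Acta2* and *Lmod1* (WT gd16.5 against gd14.5) and *Des* (0.52, KO gd19.5 against gd16.5, adjusted p 0.0491). The interaction was not run by limma voom, by the bias-adjusted test, with 10 counts in each library or with the Y-linked covariate.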
